A study of Mus musculus with 6 samples.

Results

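Enteroendocrine cells are the hormone-secreting cells of the gut lining, and the 10 genes described here encode their products: the hormones *Gcg*, *Pyy*, *Insl5*, *Sst*, *Nts* and *Cck*, the serotonin-synthesizing enzyme *Tph1*, and the granule proteins *Chga*, *Chgb* and *Scg2*. They were taken by gene symbol from a table of 18049 genes, and all 10 were present and passed the filter on low values. The table covers RNA-Seq of colonic crypts from 6 mice, 3 control and 3 treated with GSK503, an inhibitor of the histone methyltransferase EZH2. All 6 mice carried a conditional gene knockout driven by *Villin-Cre*, which acts in intestinal epithelium, together with a knockin humanized *Tgfbr2*, on a C57BL/6J background. The GSK503 mice received 200 μg/kg in sterile PBS by tail vein 2 times a week for 9 weeks. Controls were given 20% captisol made up in PBS, so the vehicles as described also differed. Ages at collection are not given in the sources used here.

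Enteroendocrine cells arise from crypt progenitors and are thinly scattered among absorptive, goblet and tuft cells. They package prohormones with granins (the chromogranin and secretogranin proteins) into dense-core granules, cleave them there, and release the peptides when nutrients or microbial metabolites reach their surface. In the large intestine the main types are L cells, which make the proglucagon peptides, peptide YY and the insulin-like peptide of *Insl5*, enterochromaffin cells, which make serotonin, and D cells, which make somatostatin.

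The deposited values were read as estimated counts per 1000000 reads of a scaled library, called scaled values below. The libraries held an estimated 108162865 to 135085025 counts, and the members' estimated counts ran from about 71 to 16176. Pairs of libraries correlated across genes at r = 0.976 to 0.990 on the log2 scale. Epithelial markers (*Krt8*, *Epcam*, *Cldn7*, *Cdh1*, *Vil1*, *Krt20*) summed to 9565 to 10455 in control and 10029 to 11670 in GSK503 mice, so the libraries were rich in epithelium, as labelled. *Hoxb13*, a gene of the distal colon, was 98.0 to 148 over the 6 mice, and *Sis*, an enzyme of small intestinal enterocytes, was at most 3.69. *Fabp6*, another small intestinal marker, was higher, at 11.9 to 24.8 in control and 9.54 to 15.1 in GSK503 mice. *Xist*, the X-inactivation RNA, was 0.419 to 0.936 in controls and 825 to 1236 after GSK503. The Y-linked *Uty* was 42.5 to 53.7 in controls and 0.67 to 1.08 in GSK503 mice. Sex-linked expression therefore separated the groups completely, and sex and treatment cannot be told apart in any comparison below. Smooth muscle markers summed to 20.9, 90.1 and 46.2 in control mice 1 to 3, and to 4.52, 4.26 and 122 in GSK503 mice 1 to 3.

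All 10 genes had a lower mean in the GSK503 mice than in the control mice, and 3 passed the test. The granule proteins *Chgb* and *Chga* and the hormone gene *Gcg* fell to between 55.3% and 61.5% of their control means. *Tph1*, *Scg2* and *Cck* had fitted differences of similar size without passing, whereas *Pyy*, *Nts* and *Sst* differed little in mean. Calls were made with limma on log2(value + 0.1) over 16670 genes at an adjusted p below 0.05 (Benjamini-Hochberg). By this rule 0.144% of all tested genes were lower in GSK503 mice and 0.498% were higher. That balance rests on the scaling: 24 genes were lower and 83 higher, against 178 and 83 when scaled by library total and 102 and 82 when scaled by epithelial markers, and the members called numbered 3 under each. The median log2 fold change of the 10 genes was -0.64, against -0.01 over all tested genes, of which 51.1% were below 0. For 4 of the 10 genes (*Chgb*, *Chga*, *Gcg* and *Tph1*) every GSK503 mouse lay below every control mouse. Such a complete separation downward was found for 9.22% of all genes and upward for 9.84%, and upward for 0 of the 10. In bulk tissue, fewer enteroendocrine cells and less RNA of each gene per cell cannot be told apart.

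**Figure D1:**
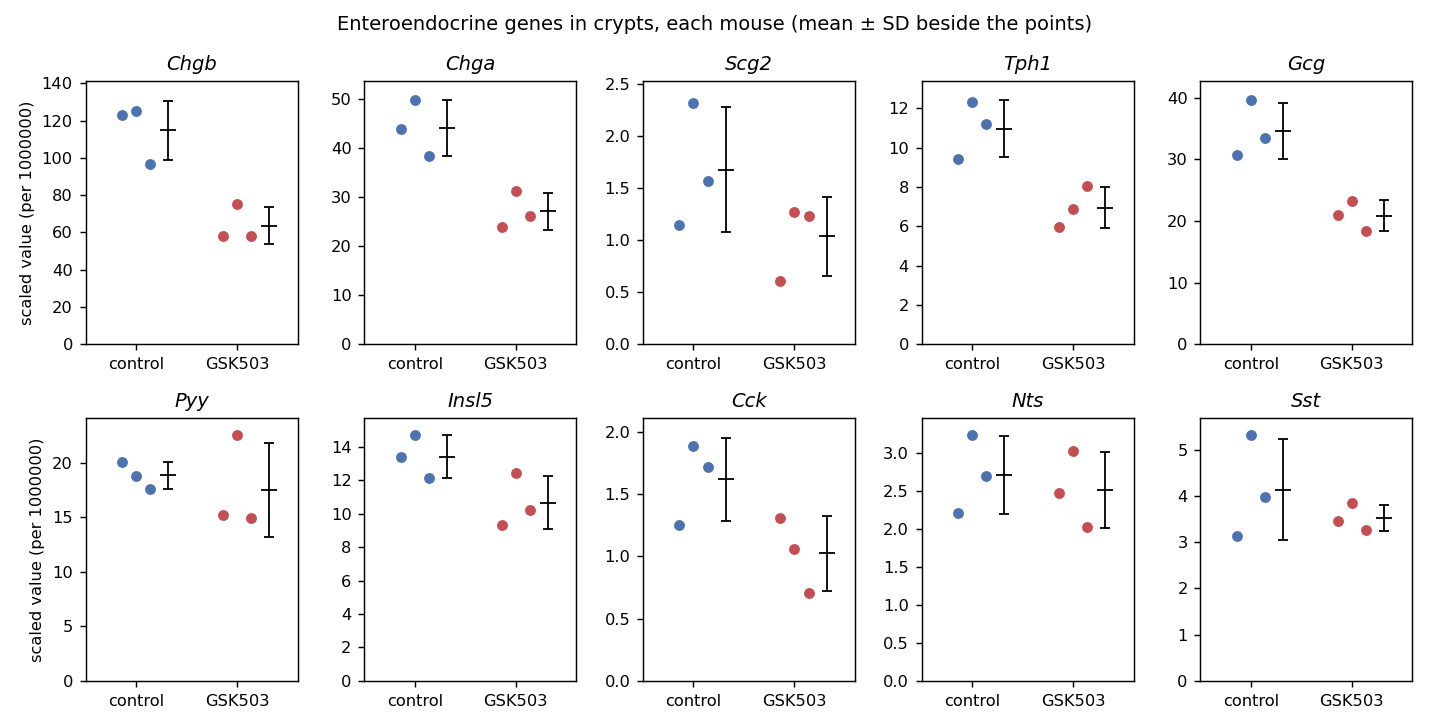
Scaled values (y axis, from 0) of the 10 genes in each of 3 control and 3 GSK503 mice, with the group mean and SD in black beside the points. The groups are apart for *Chgb*, *Chga*, *Tph1* and *Gcg*, and they overlap for the other 6 genes.

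*Chgb* encodes chromogranin B, a granin of dense-core granules, and spans chr2:132622464-132637904 on the plus strand of GRCm39. It was the member with the highest scaled value. It measured 123, 125 and 96.7 in controls and 58.1, 75.0 and 57.9 after GSK503. The highest GSK503 mouse was therefore still below the lowest control mouse. The log2 fold change was -0.85 ± 0.13 (SE, n = 3 per group; 95% interval -1.14 to -0.57; limma adjusted p = 0.0215). *Chga* encodes chromogranin A, the most widely used marker of enteroendocrine cells (chr12:102520484-102531300, plus strand). Its values were 43.8, 49.7 and 38.3 in control and 23.9, 31.1 and 26.1 in GSK503 mice, again without overlap. Its log2 fold change was -0.70 ± 0.13 (SE, n = 3 per group; 95% interval -0.98 to -0.42; limma adjusted p = 0.0471). *Scg2*, secretogranin II, is the precursor of the peptide secretoneurin (chr1:79412386-79417837, minus strand). It was much scarcer, at 1.14, 2.32 and 1.57 in control and 0.602, 1.27 and 1.23 in GSK503 mice, and the groups overlapped because control mouse 1 lay below 2 of the GSK503 mice. Its interval ran from -1.49 to 0.18 on the log2 scale (limma adjusted p = 0.496), so neither a large decrease nor a small increase can be set aside.

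Among the hormones, *Gcg* passed the test. It encodes proglucagon, the source of the glucagon-like peptides in L cells (chr2:62304873-62313997, minus strand). *Gcg* was 30.7, 39.6 and 33.4 in control and 20.9, 23.3 and 18.4 in GSK503 mice. All GSK503 values lay below all control values, with a log2 fold change of -0.72 ± 0.12 (SE, n = 3 per group; 95% interval -1.0 to -0.44; limma adjusted p = 0.0393). *Pyy*, whose product slows gut transit and is made by the same L cells (chr11:101997502-101998658, minus strand), was 20.1, 18.8 and 17.6 in control and 15.2, 22.5 and 14.9 in GSK503 mice. GSK503 mouse 2 had the highest *Pyy* of all 6 mice and the other 2 treated mice the lowest. The log2 fold change of *Pyy* was -0.12 with an interval of -0.48 to 0.23 (limma adjusted p = 0.791), and this interval excludes a decrease as large as that fitted for *Gcg*. *Insl5* encodes an insulin-like peptide of colonic L cells (chr4:102875069-102884039, minus strand). It was 13.4, 14.7 and 12.1 in control and 9.33, 12.4 and 10.2 in GSK503 mice. Only GSK503 mouse 2 and control mouse 3 overlapped, and the log2 fold change of -0.34 did not pass (95% interval -0.66 to -0.02; limma adjusted p = 0.344).

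The proportion of *Gcg* to the other L cell hormones differed between the groups. *Gcg* was 1.53, 2.11 and 1.90 times *Pyy* in controls and 1.37, 1.04 and 1.24 times *Pyy* after GSK503. *Gcg* was 2.29, 2.70 and 2.75 times *Insl5* in the control mice, and 2.24, 1.89 and 1.81 times in the GSK503 mice. Neither of these ratios overlapped between groups, though GSK503 mouse 1 and control mouse 1 lay close together in them. *Pyy* was 1.5, 1.28 and 1.45 times *Insl5* in controls and 1.63, 1.82 and 1.46 times after GSK503, which overlapped. These ratios of scaled values were chosen after the values were seen and were not tested.

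*Sst*, *Nts* and *Cck* were the scarcer hormones. *Sst* encodes somatostatin, the D cell peptide that inhibits the release of other hormones (chr16:23707321-23711733, minus strand). It was 3.14, 5.31 and 3.97 in control and 3.47, 3.84 and 3.27 in GSK503 mice. The GSK503 values all lay within the control range, and the log2 fold change was -0.20 (95% interval -0.71 to 0.31; limma adjusted p = 0.765). *Nts*, neurotensin (chr10:102317614-102326396, minus strand), was 2.21, 3.24 and 2.70 in control and 2.47, 3.03 and 2.03 in GSK503 mice. These groups overlapped almost wholly, and the log2 fold change was -0.11 (95% interval -0.67 to 0.44; limma adjusted p = 0.895). *Cck*, cholecystokinin, is best known as a hormone of the upper small intestine (chr9:121315695-121324863, minus strand). It was 1.25, 1.89 and 1.72 in control and 1.31, 1.06 and 0.707 in GSK503 mice, with an overlap between control mouse 1 and GSK503 mouse 1. Its log2 fold change of -0.63 carried an interval from -1.34 to 0.08 (limma adjusted p = 0.442).

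*Tph1* encodes the rate-limiting enzyme of serotonin synthesis outside the brain and marks enterochromaffin cells (chr7:46294065-46321965, minus strand). It was 9.42, 12.3 and 11.2 in control and 5.94, 6.87 and 8.03 in GSK503 mice, without overlap. The log2 fold change was -0.66 ± 0.16 (SE, n = 3 per group; 95% interval -1.02 to -0.29). It did not pass over all genes (limma adjusted p = 0.117), although its interval as a single gene lies below 0.

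**Figure D2:**
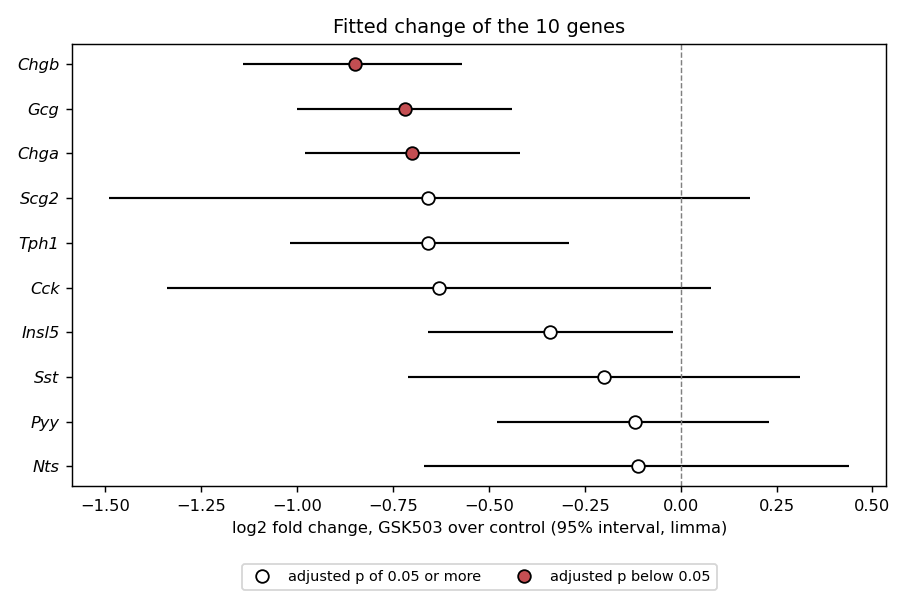
Log2 fold change of GSK503 over control (x axis) for each of the 10 genes, with the 95% interval from limma; filled points had an adjusted p below 0.05. *Chgb*, *Gcg* and *Chga* are filled, between -0.85 and -0.70, and the intervals of *Scg2*, *Cck*, *Sst*, *Pyy* and *Nts* cross 0.

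The 3 calls were not stable when 1 mouse was left out, which also leaves fewer mice in the fit. *Chgb* no longer passed without control mouse 1 (limma adjusted p = 0.0705), control mouse 2 (limma adjusted p = 0.0853) or GSK503 mouse 1 (limma adjusted p = 0.0703). *Gcg* kept its call only when control mouse 1 was left out (limma adjusted p = 0.047). Without any of the other mice it had an adjusted p of 0.057 to 0.113 in limma. *Chga* lost its call whichever mouse was left out, with an adjusted p of 0.0537 without control mouse 3 to 0.138 without control mouse 2. The direction could not change in these fits, because every GSK503 mouse lay below every control mouse for these 3 genes. Over the same 6 fits the log2 fold change was between -0.98 and -0.79 for *Chgb*, -0.81 and -0.62 for *Gcg*, and -0.80 and -0.61 for *Chga*. Each call was also lost when the variance was estimated without its trend on expression level, at an adjusted p of 0.214 for *Chgb*, 0.22 for *Gcg* and 0.234 for *Chga*. A limma-voom fit on estimated counts recovered from the table kept all 3, at an adjusted p of 0.0252, 0.0434 and 0.0492 in the same order. *Chga* also lost its call with a pseudocount of 0.01 (limma adjusted p = 0.052) or 1 (limma adjusted p = 0.0541), and when X- and Y-linked genes were left out (limma adjusted p = 0.0504).

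The mice of a group also differed together over these genes. Among the controls, mouse 2 had the highest value for 9 of the 10 genes, and among the GSK503 mice, mouse 2 did so for 8. The 10 scaled values summed to 248, 273 and 219 in controls and to 141, 180 and 143 after GSK503. *Chgb* alone made up 44.1% to 49.6% of that sum in control mice and 40.5% to 41.6% in GSK503 mice. The 6 small intestinal enterocyte markers summed to 31.5, 37.0 and 17.6 in control and 18.1, 21.6 and 16.4 in GSK503 mice. Each group's highest sum was in mouse 2, but the genes did not share this order. *Fabp6*, the largest part of each sum, was 24.8, 18.7 and 11.9 in control and 10.5, 15.1 and 9.54 in GSK503 mice. *Apoa4* was 6.11 in control mouse 2 and 0 in the other controls. Among the controls the smooth muscle markers were highest in mouse 2, and among the GSK503 mice in mouse 3. The part of these markers in the spread between mice was not tested.

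Dividing by the length of the canonical transcript allows a rough comparison of the genes with each other. The full length was used, from 550 bases for *Pyy* to 4254 for *Tph1*, with no correction for fragment length. The order of short and long transcripts is therefore uncertain. Per kilobase, *Pyy* was highest in control mice at 34.2 ± 2.27 (SD, n = 3), followed by *Gcg* at 31.6 ± 4.21 and *Chgb* at 31.6 ± 4.38. These 3 levels did not differ beyond their spread. *Chga* at 22.5 ± 2.94 and *Insl5* at 19.3 ± 1.81 came next. Their ranges overlapped, though *Chga* was above *Insl5* within each control mouse. A wide gap then separated the abundant genes from *Tph1* at 2.58 ± 0.345, *Sst* at 2.40 ± 0.636 and *Nts* at 2.18 ± 0.413. Their ranges overlapped, though *Nts* was below *Tph1* and *Sst* within each control mouse. *Scg2* at 0.666 ± 0.236 and *Cck* at 0.406 ± 0.0835 were lowest. Their ranges overlapped, though *Scg2* was above *Cck* within each control mouse. In GSK503 mice *Pyy* per kilobase (31.9 ± 7.85) stood above *Gcg* (19.1 ± 2.24) and *Chgb* (17.5 ± 2.69) in every mouse, with ranges of 27.1 to 40.9, 16.9 to 21.4 and 15.9 to 20.6.

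Relating each gene to *Chga* within the same mouse removes the library scaling. *Chga* was itself lower in GSK503 mice, so a gene that fell less is higher on this scale. Some members differed little from *Chga* in mean, some were higher relative to it, and *Chgb* was lower. *Gcg*, *Tph1*, *Scg2* and *Cck* had mean log2 ratios within 0.07 of their control means, and their groups overlapped. *Pyy* relative to *Chga* was 0.458, 0.377 and 0.459 in control and 0.637, 0.725 and 0.570 in GSK503 mice, a difference of 0.58 in log2 ratio. *Insl5* relative to *Chga* was the most even, at 0.306, 0.295 and 0.317 in control and 0.391, 0.398 and 0.389 in GSK503 mice, a difference of 0.36. *Sst* (difference 0.50) and *Nts* (difference 0.59) were likewise higher relative to *Chga* in all GSK503 mice than in any control mouse. *Chgb* was the only gene lower relative to *Chga* in all of them, from 2.81, 2.52 and 2.53 to 2.43, 2.41 and 2.21, a difference of -0.15. For each of these 5 separated ratios the exact two-sided permutation test gave p = 0.1, the smallest that 3 against 3 mice allow, and 0.18 after adjustment over 9 ratios, so no ratio could pass 0.05. All 9 ratios share *Chga* as their denominator, so they are not independent of each other.

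**Figure D3:**
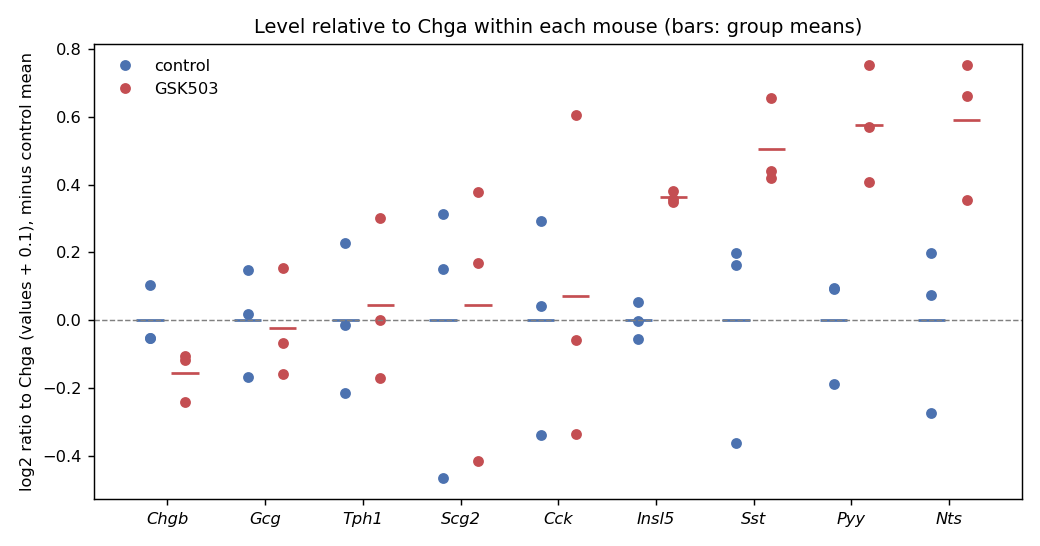
Log2 ratio of each gene to *Chga* in the same mouse (y axis, values + 0.1), shown relative to the control mean, for 3 control and 3 GSK503 mice per gene, with bars at the group means. *Insl5*, *Sst*, *Pyy* and *Nts* lie above the controls in all GSK503 mice and *Chgb* below, while the groups overlap for *Gcg*, *Tph1*, *Scg2* and *Cck*.

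The promoter sequence is shown for the 3 genes that passed the test and for *Scg2* and *Sst*, which share a motif with *Chgb*. Each line gives the last 150 bases before the RefSeq start (table build GRCm38.p6), 5′ to 3′ on the gene's strand. By exact match to GRCm39 they lie at chr2:132623412-132623561 (plus), chr1:79417744-79417893 (minus), chr16:23709595-23709744 (minus), chr12:102521050-102521199 (plus) and chr2:62313998-62314147 (minus). Capitals mark TGACGTCA, the palindromic cyclic AMP response element, and CAGATG, an E-box of the type bound by NeuroD and neurogenin factors.
Chgb: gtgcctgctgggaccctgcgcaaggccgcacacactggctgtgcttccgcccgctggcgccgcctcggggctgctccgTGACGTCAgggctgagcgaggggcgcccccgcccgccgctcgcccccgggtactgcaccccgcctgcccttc
Scg2: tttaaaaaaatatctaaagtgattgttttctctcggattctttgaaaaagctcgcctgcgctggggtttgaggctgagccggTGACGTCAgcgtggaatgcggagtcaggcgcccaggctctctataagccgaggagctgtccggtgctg
Sst: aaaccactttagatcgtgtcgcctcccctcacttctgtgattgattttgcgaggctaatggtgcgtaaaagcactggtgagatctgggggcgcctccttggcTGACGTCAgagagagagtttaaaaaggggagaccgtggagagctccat
Chga: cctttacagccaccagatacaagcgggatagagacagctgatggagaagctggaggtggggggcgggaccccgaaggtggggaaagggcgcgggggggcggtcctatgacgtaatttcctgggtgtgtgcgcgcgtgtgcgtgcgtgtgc
Gcg: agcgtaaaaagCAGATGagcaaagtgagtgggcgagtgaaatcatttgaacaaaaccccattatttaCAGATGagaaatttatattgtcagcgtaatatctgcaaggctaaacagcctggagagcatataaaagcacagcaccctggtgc

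The cyclic AMP response element began 72 bases before the start in *Chgb*, 68 in *Scg2* and 48 in *Sst*. On either strand of the 250 bases before the start, it was found in 3 of the 10 members and in 1.55% of 32841 RefSeq windows of that length, each gene having 1 or more windows. Of these genes *Chgb* passed the test, and *Scg2* and *Sst* did not (limma adjusted p = 0.496 and 0.765); the difference between them was not tested. The CAGATG box was found 2 times in *Gcg*, beginning 139 and 83 bases before the start, and in 3 of the 10 members (*Gcg*, *Cck* and the second window of *Insl5*), against 14.4% of all windows. The shorter TGACG site, which the full element contains, was in 7 of the 10 members and 17.8% of windows. Each of the other 4 motifs searched was in 2 of the 10 members. CAGCTG was in 13.0% of all windows and TGTTTAC in 3.17%. GATAAG was in 6.55% of all windows and TATAAA in 12.4%. The motif counts rest on where transcription is taken to start: with the canonical GENCODE starts on GRCm39, TGACGTCA was in 0 of the 10 members and 1.70% of 21751 windows, and TGACG in 2 members and 18% of windows. The 250 bases before the RefSeq start of *Chgb* held 26 CpG dinucleotides, more than in 90.4% of windows, those of *Chga* 16 and those of *Gcg* 7. In these windows the 3 genes that passed the test did not share a CpG content. CpG dinucleotides were not counted before the GENCODE starts. A motif match is a description of the letters and not of binding.

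Genes that act with the members were read as 6 lists with 62 tested genes in all, and 0 of the 62 passed the limma test in either direction; limma-voom also called 0. At an unadjusted limma p below 0.05, 10 were lower and 1 higher, where 6.27% of all tested genes were lower and 7.06% higher. The 13 tested genes of prohormone processing and granule machinery had a median log2 fold change of -0.34, with 11 below 0 and 2 lower without adjustment. Their largest differences were those of *Rab3c*, a granule GTPase, at -0.79 ± 0.28 (SE; limma adjusted p = 0.269), *Resp18* at -0.71 ± 0.37 (limma adjusted p = 0.465), and *Scg5*, a chaperone of prohormone convertase, at -0.60 ± 0.37 (limma adjusted p = 0.527). *Rab3c* was 1.48, 2.02 and 1.63 in control and 1.10, 0.764 and 0.982 in GSK503 mice. *Pcsk1*, the convertase that cleaves proglucagon in L cells, was 19.9, 23.8 and 17.8 in control and 19.2, 20.3 and 17.8 in GSK503 mice (log2 fold change -0.09), so its values overlapped where those of its substrate *Gcg* did not; it is named outside the rule for named genes.

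The 7 genes of serotonin synthesis, packaging, uptake and breakdown had a median log2 fold change of 0.16. The 2 below 0 were both vesicular transporters. The breakdown enzymes *Maoa* (0.16) and *Maob* (0.20), named outside the rule, were among those above 0. *Slc18a2*, a vesicular monoamine transporter, was 4.0, 3.81 and 4.97 in control and 2.80, 3.32 and 2.69 in GSK503 mice, below the controls throughout like *Tph1*, but did not pass (log2 fold change -0.52 ± 0.20 SE; limma adjusted p = 0.31). *Slc18a1*, the other vesicular transporter, had a log2 fold change of -0.34 and *Gch1*, which makes the cofactor of *Tph1*, one of 0.22 (limma adjusted p = 0.585 and 0.506). Among 7 other gut hormones and neuropeptides the median was -0.42. *Tac1*, the substance P precursor made by enterochromaffin cells and by neurons, was 8.24, 5.94 and 14.5 in control and 5.03, 3.50 and 1.94 in GSK503 mice (log2 fold change -1.43 ± 0.38 SE; limma adjusted p = 0.139). *Calcb*, a calcitonin gene-related peptide, was under 0.4 in every mouse (log2 fold change -1.37; limma adjusted p = 0.289). *Sct*, secretin, was 4.04, 2.23 and 2.34 in control and 10.4, 4.42 and 2.76 in GSK503 mice, overlapping at 2.76 (log2 fold change 0.84; limma adjusted p = 0.451).

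The 9 tested receptors of the members' products had a median log2 fold change of -0.45, with 8 below 0. *Glp2r*, a receptor of glucagon-like peptides, was under 0.9 in every mouse and 0 in GSK503 mouse 2 (log2 fold change -1.22 ± 0.68 SE; limma adjusted p = 0.485). *Sstr5*, a somatostatin receptor, had a log2 fold change of -0.89 and *Npy1r*, a receptor for peptide YY, one of -0.66 (limma adjusted p = 0.353 and 0.456). Of the 13 nutrient and metabolite sensors the median was -0.10, with 8 below 0 and 5 above. *Gpbar1*, the bile acid receptor of L cells, was 0.457, 0.154 and 0.425 in control and 0.0593, 0.0398 and 0.0666 in GSK503 mice (log2 fold change -1.44; limma adjusted p = 0.23). These treated values stand close to the floor of 3 counts, 0.0228 to 0.0271. *Trpa1*, an irritant channel of enterochromaffin cells, was under 0.2 in every mouse (log2 fold change -1.06; limma adjusted p = 0.407). *Piezo2*, their mechanosensor, was 4.16, 4.34 and 3.78 in control and 1.58, 2.23 and 2.92 in GSK503 mice (log2 fold change -0.88 ± 0.25 SE; limma adjusted p = 0.167).

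The 13 enteroendocrine transcription factors had a median log2 fold change of -0.38, with 9 below 0. *Neurog3*, which starts the lineage, was 0.713, 0.606 and 0.482 in control and 0.889, 0.403 and 0.660 in GSK503 mice, so its groups overlapped (log2 fold change 0.06); it too is named outside the rule. *Neurod1*, which acts after *Neurog3*, was 2.38, 1.56 and 1.77 in control and 1.19, 1.18 and 0.890 in GSK503 mice, without overlap (log2 fold change -0.75 ± 0.28 SE; limma adjusted p = 0.294). *Lmx1a*, a factor of enterochromaffin cells, was 1.04, 1.70 and 1.63 in control and 0.865, 0.868 and 0.799 in GSK503 mice (log2 fold change -0.69; limma adjusted p = 0.358).

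**Figure D4:**
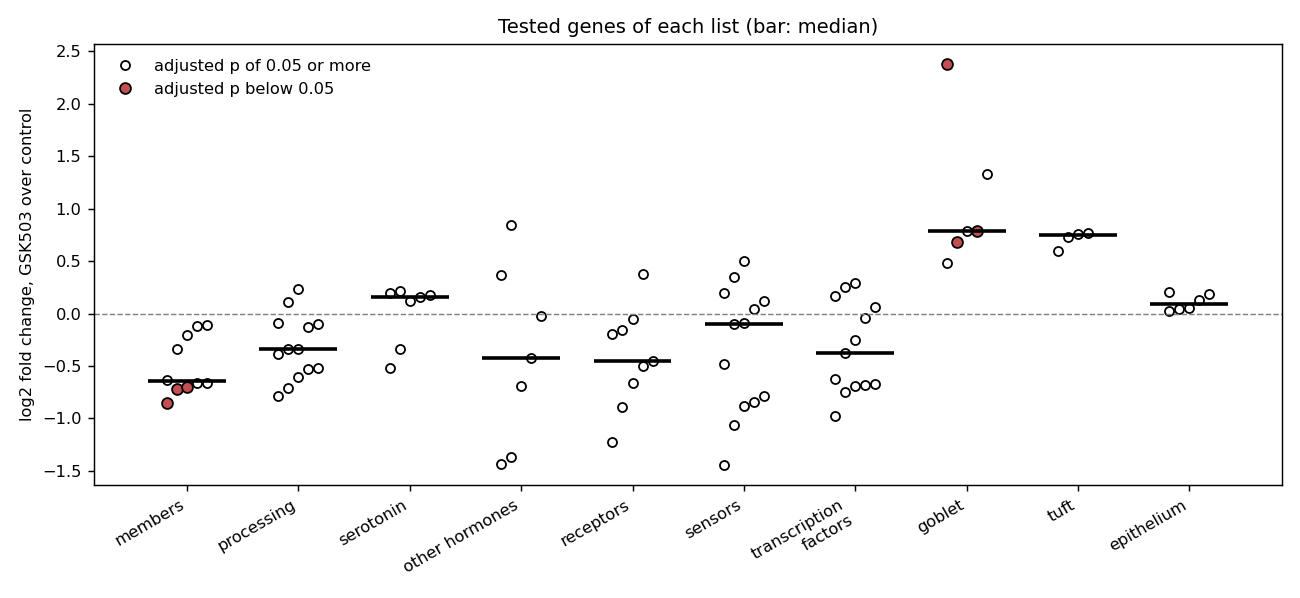
Log2 fold change of GSK503 over control (y axis) for each tested gene of the member list, the 6 related lists and the goblet, tuft and epithelial markers, with a bar at each median; filled points had an adjusted p below 0.05. The members' median lies at -0.64 and the related lists' medians between -0.45 and 0.16, while the goblet and tuft markers all lie above 0.

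Goblet cell markers also differed between the groups. All 6 goblet cell markers were higher in every GSK503 mouse than in any control mouse, and 3 of them rose by the test: *Clca1* (log2 fold change 2.38; limma adjusted p = 0.0294), *Tff3* (0.79; limma adjusted p = 0.0325) and *Spdef* (0.68; limma adjusted p = 0.0459). Their summed value was 10122 to 18316 in control and 31336 to 49874 in GSK503 mice. All 4 tested tuft cell markers had a log2 fold change above 0 (median 0.74) and 0 passed, with 3 at an unadjusted p below 0.05 in limma. The 6 epithelial markers had a median of 0.09 and the 4 absorptive colonocyte markers one of 0.07, and 0 of either list passed (limma; unadjusted p below 0.05 for 1 and 0). The part of these shifts in the members' values was not tested.

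Neurons also hold granins, and mast cells also use *Tph1*, so their markers are given beside these genes. The 10 enteric neuron markers summed to 8.71, 12.4 and 12.7 in control and 7.52, 7.07 and 10.8 in GSK503 mice. *Ret*, a gene that other cells express too, gave the largest part in the control mice at 7.27 to 9.83, and was 2.87 to 4.92 in GSK503 mice. The other 9 markers were each at or below 1.91 in every mouse. Of the 9 tested neuron markers, *Ret* among them, 4 had a log2 fold change below 0 and 5 above, with a median of 0.24. The sums therefore do not describe the neuron markers as a set. The 11 mast cell markers summed to 80.7 to 120 in control and 81.9 to 102 in GSK503 mice, chiefly through *Kit*. *Kit* alone was 77.8, 69.8 and 52.4 in control and 64.3, 71.0 and 85.9 in GSK503 mice. The sums therefore say little about the other markers. The mast cell proteases did not share a direction. *Mcpt1* was 26.2, 6.56 and 16.5 in control and 8.45, 8.75 and 6.92 in GSK503 mice, and *Mcpt2* was 11, 3.10 and 6.92 in control and 3.77, 4.33 and 3.40 in GSK503 mice. Their log2 fold changes were -0.82 and -0.68 (limma adjusted p = 0.428 and 0.485), beside 0.94 for *Cma1* (limma adjusted p = 0.088). *Cpa3*, *Mcpt4*, *Tpsb2*, *Tpsab1*, *Hdc*, *Ms4a2* and *Fcer1a* were each at or below 0.999 in every mouse. The part of neurons and mast cells in the members' values was not tested. The 4 glial markers summed to 0.748 to 1.45 in control and 1.15 to 2.45 in GSK503 mice. With the average of the smooth muscle markers as a covariate, *Chgb* kept its call. *Gcg* and *Chga* did not (limma adjusted p = 0.0598 and 0.0866), but their log2 fold changes of -0.77 and -0.71 were as large as without it.

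The 5 non-member genes with profiles nearest to that of *Chga* over the 6 mice were *Kif1a*, *P2rx1*, *Tspyl5*, *Arhgap20* and *Rftn1*. Their centred log2 profiles differed from that of *Chga* by a root mean square of 0.06 to 0.11, beside 0.10 for *Chgb* and 0.13 for *Gcg*. *Kif1a*, a motor that carries dense-core vesicles, was nearest, at 2.36, 2.62 and 2.07 in control and 1.39, 1.65 and 1.36 in GSK503 mice. *Arhgap20*, a GTPase-activating protein, was the most abundant of them at 41.7, 43.8 and 34.1 in control and 22.4, 24.9 and 20.4 in GSK503 mice, and the only one of the 5 that passed (log2 fold change -0.82; limma adjusted p = 0.0174). With 6 mice in 2 groups, many genes lower in GSK503 mice resemble one another, and no p was computed for this likeness.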

How the data were processed

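Colonic crypt RNA of 3 control and 3 GSK503-treated mice was sequenced as paired-end 76 bp stranded total RNA. Reads were aligned by the authors with STAR to the GRCm39 build. RSEM gave estimated counts, and the methods name TMM normalization. The authors deposited 1 signal value per gene and mouse. From the methods and the values it was read as the estimated count per 1000000 reads of a TMM-scaled library, though no source states the unit. No gene filter is given in the sources used here. Column names were matched to the sample labels. The step between low values gave each library's size, with 75.2% to 77.7% of values whole to within 0.01 counts, so depth is an estimate. Genes at 0.1 or more in at least 3 mice were kept (16670 of 18049) and log2(value + 0.1) was fitted with limma 3.58.1 in R 4.3.3 (lmFit, eBayes with an intensity trend). P-values were adjusted by the Benjamini-Hochberg method over all tested genes. Intervals are 95% intervals for 1 gene. Ratios to *Chga* were compared by exact permutation in scipy 1.17.1. The fit was also run on simulated counts with known changes. It called 184 of 197 changed genes and 5 unchanged genes. The same variability setting was used for every simulated gene, so this check does not cover the real spread between mice.

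The members and lists were chosen with earlier results of these data known. The genes named were all 10 members, in each related list those with an adjusted p below 0.1 or else the 3 with the largest absolute log2 fold change, and the 5 genes nearest to *Chga* in profile. The gene deleted in all mice and 1 gene that this rule names are not reported here. Each library came from a different mouse. Positions are those of GENCODE, which matched 95.4% of symbols, and the promoter table covered all 10 members, 3 of them with 2 windows. Islet markers and listed genes outside the table were not analysed here. Alternatives covered scaling, filter, pseudocount, variance model, leaving out each mouse, X and Y genes, abundant genes, a smooth muscle covariate and a replicate block.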

Additional observations from a re-analysis of the deposited data

How the results depend on the processing

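The median log2 fold change of the 10 genes was below 0 under all 20 alternatives, but some of these could not move it. Changing the filter, the intensity trend or the robustness of the variance estimate does not alter a member's fitted log2 fold change. Nor does the replicate block or the removal of X and Y genes. The median was -0.64 in each of those fits, so they do not test it. It moved to -0.38 with a pseudocount of 1 and -0.47 with the smooth muscle covariate. Omitting a single mouse gave medians between -0.73 (control mouse 1) and -0.45 (GSK503 mouse 1). The number of members called lower was 3, but 0 without an intensity trend, 1 with the smooth muscle covariate, 2 with either other pseudocount or without X and Y genes, and 0 to 1 with each mouse left out. The count of members without overlap was 4, and 4 to 7 when 1 mouse was omitted, 7 being the value without control mouse 1. Related lists had 0 calls under each of their 14 alternatives. Library total scaling gave a members' median of -0.75 while that of all genes moved to -0.12, and epithelial marker scaling -0.74 against -0.11. Over all genes 107 were called, but 16 without the trend, 33 with the block, 261 and 184 with these scalings, and 29 to 216 with 1 mouse omitted.

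Same-numbered mice did not deviate together (correlations 0.03, -0.13 and -0.12), so the numbers do not pair the mice, and the count with a replicate block was 1 (*Chgb*, adjusted p = 0.0335 in limma).

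Differences near 0 changed sign. The log2 fold change of *Nts* became 0.02 without control mouse 2 and 0.03 without GSK503 mouse 3, in a range of -0.25 to 0.03 over the omitted mice. Relative to *Chga*, leaving out 1 mouse moved *Gcg* between -0.11 and 0.05, *Cck* between -0.20 and 0.27, *Tph1* between -0.08 and 0.16, and *Scg2* between -0.19 and 0.27, and a pseudocount of 0.01 gave -0.0049 for *Scg2*. The cause was not tested. *Scg2* and *Cck* rest on the fewest estimated counts of the 10 genes, and how far depth limits them was not tested.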
